A study of Mus musculus with 16 samples.

Results

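Translation initiation factors are the proteins that bring the small ribosomal subunit, the initiator tRNA and the mRNA together and place the ribosome on the start codon. Their genes were followed here in normal mouse B cells and in Myc-driven B cell lymphomas. The set was chosen by name: all genes whose symbol starts with Eif1 to Eif6 and that the array measures under a single gene symbol. The eIF2 kinases, named Eif2ak, and the sex-linked genes Eif2s3x, Eif2s3y and Eif1ay were left out. This gave 33 genes of 14860 tested, each read from 1 transcript cluster, the group of array probes that covers 1 gene. The rule itself uses names and no expression values, although it was set with earlier results of these data known. Eif1, Eif1ax, Eif2s1, Eif4a1, Eif4a2, Eif4g1, Eif4ebp1, Eif5a and Eif6 are not listed under a single symbol and were not analysed here.

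RNA of 16 samples was measured on Affymetrix exon arrays, 1 array per sample, all from mice of a C57BL6/129 hybrid background. The 4 groups were normal spleen B cells of p53(-/-) mice (p53-null, n = 2), normal spleen B cells of p53(246/-) mice (p53-246, n = 2), lymph node lymphoma cells of p53(-/-) mice (n = 6) and lymph node lymphoma cells of p53(246/-) mice (n = 6). Per the labels, other cells were depleted magnetically from the B cells, which leaves room for a remainder of other cell types. All 4 groups carry at least 1 null allele of p53, the labels do not describe the 246 allele further, and the sources used here do not say which Myc sequence drives the lymphomas. Normal cells came from spleen and lymphoma cells from lymph node, so tissue and malignancy cannot be told apart. The labels do not state that samples of a group came from separate animals, so p-values measure only the spread between these samples.

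In the textbook scheme, eIF2 carries the initiator tRNA as a ternary complex with GTP, and eIF2B recharges eIF2 with GTP after each round. The large eIF3 complex, with eIF1, eIF1A and eIF5, prepares the small subunit, while eIF4E binds the mRNA cap and recruits the scaffold eIF4G and the helicase eIF4A. Scanning then finds the start codon, and eIF5B joins the large subunit. Recruitment of eIF4G is restrained by 4E-binding proteins, which mTORC1 signalling releases from eIF4E. In lymphoma research Eif4e is a described target gene of Myc, and excess eIF4E speeds Myc-driven lymphoma in mice.

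Myc binds, with its partner Max, to the E-box CACGTG, so the promoter windows of the factors were searched for it. The windows are those of RefSeq on GRCm38.p6, from 250 bases before to 50 bases after a gene start, and the motif reads the same on both strands. Of the 33 genes, 27 have a window, and 7 of these 27 (25.9%) hold the E-box: Eif1b, Eif3a, Eif3f, Eif3k, Eif4e, Eif4h and Eif5a2. Counted by gene, the motif is in 10.2% of the 11869 genes of the arrays that have a window. Counted by window, it is in 7 of the 34 windows of the factors (20.6%) and in 7.15% of all 32851 windows. A match is a description of the letters and not evidence of binding. The first 3 sequences below are the windows of the factors with values given for every array that hold the motif, and the other two belong to the factors with the largest rises, which lack it. Each is shown in lower case, 5′ to 3′ in the direction of its gene, for the 250 bases before the gene start, with the E-box in capitals. Eif4e has a further window without the motif.

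Eif4e, chr3:138527018-138527267, plus strand: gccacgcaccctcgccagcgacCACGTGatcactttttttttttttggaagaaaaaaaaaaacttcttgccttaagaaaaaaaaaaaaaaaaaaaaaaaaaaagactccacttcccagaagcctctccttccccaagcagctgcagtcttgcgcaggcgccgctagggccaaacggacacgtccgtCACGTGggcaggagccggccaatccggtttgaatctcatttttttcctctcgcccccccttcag
Eif4h, chr5:134639410-134639659, minus strand: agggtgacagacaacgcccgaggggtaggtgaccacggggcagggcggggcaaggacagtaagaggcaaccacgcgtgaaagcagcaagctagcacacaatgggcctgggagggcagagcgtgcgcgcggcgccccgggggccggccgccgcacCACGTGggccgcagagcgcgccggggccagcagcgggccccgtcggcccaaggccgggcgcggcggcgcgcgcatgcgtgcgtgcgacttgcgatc
Eif5a2, chr3:28781027-28781276, plus strand: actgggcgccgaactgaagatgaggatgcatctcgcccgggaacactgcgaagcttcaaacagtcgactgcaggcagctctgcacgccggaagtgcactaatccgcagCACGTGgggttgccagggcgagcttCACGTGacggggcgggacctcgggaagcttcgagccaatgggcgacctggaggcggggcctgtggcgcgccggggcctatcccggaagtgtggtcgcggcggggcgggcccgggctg
Eif2b1, chr5:124579132-124579381, minus strand: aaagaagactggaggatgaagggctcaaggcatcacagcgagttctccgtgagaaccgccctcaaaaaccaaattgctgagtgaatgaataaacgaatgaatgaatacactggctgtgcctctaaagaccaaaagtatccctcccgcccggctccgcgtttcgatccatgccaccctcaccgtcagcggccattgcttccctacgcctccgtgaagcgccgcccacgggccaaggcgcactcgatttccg
Eif3b, chr5:140419055-140419304, plus strand: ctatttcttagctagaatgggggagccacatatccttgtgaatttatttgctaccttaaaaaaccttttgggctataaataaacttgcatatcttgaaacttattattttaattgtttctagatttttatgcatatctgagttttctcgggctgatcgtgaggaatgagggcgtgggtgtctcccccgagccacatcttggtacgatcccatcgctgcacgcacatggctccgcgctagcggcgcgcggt

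Values are log2 intensities as the authors deposited them. The low value cutoff used here is 4.41, which is 0.5 above the median level of 801 genes for olfactory and vomeronasal receptors, and 32 of the 33 factors lay above it in at least 1 group. Eif4b, the helper of the cap helicase, stayed below it in all 4 groups, with array values from 3.52 to 4.05. The standard deviation over all genes was 1.57 on p53-null normal array 1 and 1.56 on p53-246 lymphoma array 6, against 1.69 to 1.94 on the other arrays. These are called the narrow arrays. The mean of 7 T cell markers was 6.15 on p53-null normal array 2 and 6.50 on p53-null lymphoma array 6, against 4.62 to 5.30 on the others. Of the B cell markers, Cd79b, a chain of the B cell receptor, lay between 11.94 and 12.11 in normal cells and between 10.55 and 11.56 in lymphomas, far above the cutoff in all groups. The mean of 7 B cell markers was 9.94 to 10.38 on the normal arrays and 8.16 to 9.38 on the lymphoma arrays. Of the 7, 6 fell with genotypes averaged, beside 17.8% of all genes.

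Most initiation factors were higher in lymphoma than in normal cells. With both genotypes averaged (12 lymphomas, 4 normal samples), 27 of the 33 rose, 1 fell and 5 did not pass the test. Of all 14860 genes, 38.3% passed, 20.4% as rises and 17.8% as falls, and among the 10925 genes above the cutoff 27.7% rose. A gene is said to have risen or fallen where its adjusted p is under 0.05 in limma, a linear model with moderated variances, after Benjamini-Hochberg adjustment over all 14860 genes. Of the factors, 13 rose at least 2-fold, against 8.96% of all genes. The median log2 difference was 0.76 over the factors and -0.09 over all genes. For 19 factors all 12 lymphomas lay above all 4 normal samples, a separation that 13.5% of all genes show, and for 0 factors all lymphomas lay below (8.74% of all genes).

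Averaged over the 33 factors, the arrays ran from 7.76 to 7.88 in normal cells and from 8.48 to 8.83 in lymphomas, and the ranges did not overlap. The mean over all genes was 5.69 to 5.73 in normal cells and 5.70 to 5.77 in lymphomas. RNA of whole samples was measured, so a change in the share of cells that make a transcript and a change in RNA per cell cannot be told apart. Centring each array on its median moved the median difference of all genes from -0.09 to 0.04 and the share of rises among all called genes from 53.4% to 67.1%, while 28 factors rose and 1 fell. With quantile normalization 26 factors rose and 1 fell.

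**Figure D1:**
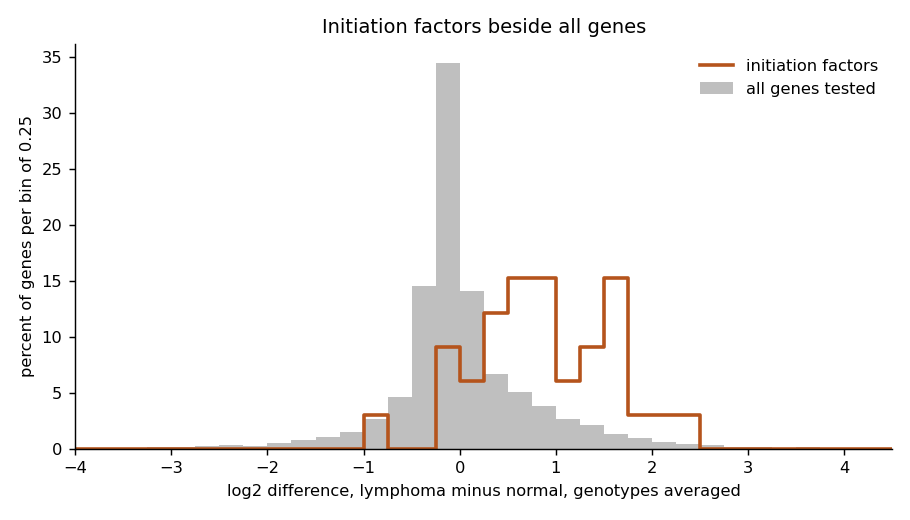
Log2 differences of lymphoma minus normal cells, genotypes averaged, in bins of 0.25; the grey bars are all 14860 genes and the line is the 33 initiation factors, each as a percent of its own set. The factors' median is 0.76 and that of all genes -0.09.

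The subunits of eIF2B, the exchange factor that recharges eIF2 with GTP, all rose (4 of 4 measured, beside 20.4% of all genes). This count and those of the other roles below are with genotypes averaged, unless a genotype is named. Eif2b1, the alpha subunit, had the largest rise of the set. In p53-null normal cells it was at 6.26 and 6.33, and p53-246 normal cells had 6.16 and 6.12. Lymphomas of the p53-null genotype ran from 8.41 over a median of 8.50 to 9.03, and those of p53-246 from 7.48 over 8.33 to 8.80. Every lymphoma was above every normal sample, and p53-246 lymphoma 2 stood lowest among the lymphomas. Eif2b1 thus rose 4.80-fold, by 2.26 on the log2 scale (SE 0.18, adjusted p = 2.52e-08, limma). Eif2b5, the catalytic epsilon subunit, was at 5.32 and 5.57 in p53-null and at 5.64 and 5.55 in p53-246 normal cells. It ran from 6.73 over a median of 7.15 to 7.54 in p53-null lymphomas and from 6.73 over 6.90 to 7.49 in p53-246 lymphomas. These groups did not overlap, and Eif2b5 rose 2.91-fold (log2 difference 1.54, SE 0.15, adjusted p = 3.23e-07, limma). The regulatory subunits Eif2b2 and Eif2b4 rose by 0.76 (SE 0.12) and 0.54 (SE 0.14). For Eif2b4 the highest normal value, 5.10, was above the lowest lymphoma value, 5.06.

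Of the genes around the ternary complex, 2 of 3 rose, beside 20.4% of all genes. Eif2a, which encodes a monomeric initiator tRNA binding protein distinct from the alpha subunit of eIF2, was at 9.13 and 9.10 in p53-null and at 9.37 and 9.44 in p53-246 normal cells. Its p53-null lymphomas ran from 10.50 over a median of 10.61 to 10.89 and its p53-246 lymphomas from 10.27 over 10.59 to 10.78. All lymphomas were above all normal samples, and the rise was 2.55-fold (log2 difference 1.35, SE 0.105, adjusted p = 1.48e-08, limma). Eif2s2, the beta subunit of eIF2 itself, overlapped between the groups. The p53-null normal samples had 7.07 and 7.03 and the p53-246 normal samples 7.71 and 7.61, while lymphomas ran from 7.50 over a median of 7.90 to 8.66 in p53-null and from 7.59 over 7.90 to 8.59 in p53-246. The p53-246 normal samples lay inside the range of the lymphomas and the p53-null normal samples below it. Eif2s2 rose 1.53-fold (log2 difference 0.61, SE 0.19, adjusted p = 0.0151, limma), and without p53-246 normal sample 2 its adjusted p was 0.0625. Eif2d, which can deliver tRNA to the ribosome without GTP, had a log2 difference of -0.11 (95% interval -0.32 to 0.10) and did not pass the test.

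All 10 measured subunits of eIF3, the scaffold on the small ribosomal subunit, rose with genotypes averaged, beside 20.4% of all genes. Of these, 6 rose at least 2-fold, beside 8.96% of all genes. Within each genotype 8 of the 10 rose, beside 17.5% of all genes in p53-null and 14.5% in p53-246. Eif3b, a core subunit that holds other subunits in place, had the smallest adjusted p of the set. It was at 7.20 and 7.39 in p53-null and at 7.15 and 7.24 in p53-246 normal cells. In p53-null lymphomas it ran from 9.28 over a median of 9.46 to 9.91 and in p53-246 lymphomas from 9.07 over 9.40 to 9.73. The gap between the highest normal and the lowest lymphoma value was wider than the range within either, and Eif3b rose 4.62-fold (log2 difference 2.21, SE 0.12, adjusted p = 1.79e-10, limma). Eif3l, a subunit found in mammals and absent from budding yeast, was at 8.13 and 8.43 in p53-null and at 8.30 and 8.34 in p53-246 normal cells. Its lymphomas ran from 9.29 over a median of 9.93 to 10.07 in p53-null and from 9.56 over 9.93 to 10.86 in p53-246. The groups were apart, with narrow array 6 of the p53-246 lymphomas highest, and the rise was 3.12-fold (log2 difference 1.64, SE 0.18, adjusted p = 1.05e-06, limma).

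The other eIF3 subunits differed in how far they rose. Eif3i, a partner of Eif3b in the core, rose by 1.58 (SE 0.13) and Eif3d, a peripheral subunit that can bind the cap of some mRNAs, by 1.35 (SE 0.18). In mammals some subunits form a ring-like octamer. All 7 of these measured here rose, beside 20.4% of all genes, with log2 differences from 0.35 to 1.64 and a median of 0.84. Among these Eif3k rose by 1.13 (SE 0.18), Eif3c by 1.02 (SE 0.11) and Eif3h by 0.84 (SE 0.10). Smaller rises were those of Eif3e (0.44, SE 0.16, adjusted p = 0.0402, limma), Eif3f (0.40, SE 0.10) and Eif3a (0.35, SE 0.11, adjusted p = 0.0195, limma). The calls of Eif3e and Eif3a did not hold throughout: under 14 of 25 other settings Eif3e lost its call and under 5 of 25 Eif3a did, with adjusted p values of up to 0.276 and 0.0957 (limma). Without p53-246 normal sample 1 the difference of Eif3e was 0.28. For Eif3e, 12 of the 14 left out 1 sample, lymphomas of both genotypes among them; for Eif3a, leaving out p53-null normal sample 2 or either p53-246 normal sample did so, as did quantile normalization and leaving out the arrays of high T cell markers.

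Of the genes of start codon selection and subunit joining, 3 of 5 rose, beside 20.4% of all genes. Eif1a encodes an eIF1A protein, which acts in scanning and is nearly identical to that of its X-linked paralogue Eif1ax, and whether the probes tell the pair apart was not tested. The p53-null normal samples had 6.68 and 6.74 and the p53-246 normal samples 6.65 and 6.80. Lymphomas of the p53-null genotype ran from 8.10 over a median of 8.20 to 8.52 and those of p53-246 from 8.0 over 8.26 to 8.35. The groups were far apart and tight, and the rise was 2.83-fold (log2 difference 1.50, SE 0.10, adjusted p = 1.76e-09, limma). Eif1ad, a nuclear protein with an eIF1A-like domain, was at 6.27 and 6.89 in p53-null and at 7.11 and 6.76 in p53-246 normal cells. It ran from 7.91 over a median of 8.18 to 8.40 in p53-null lymphomas and from 7.36 over 7.84 to 8.36 in p53-246 lymphomas. No lymphoma overlapped a normal sample, although the normal samples differed among themselves more than those of Eif1a, and the rise was 2.38-fold (log2 difference 1.25, SE 0.15, adjusted p = 3.23e-06, limma). Eif5b, which joins the large subunit, rose by 0.54 (SE 0.15, adjusted p = 0.00739, limma). It lost the call without p53-246 normal sample 1 (adjusted p = 0.0682, limma) and without the arrays of high T cell markers (adjusted p = 0.0519). The call of Eif5b was also lost with the replicate number as a block in the model (adjusted p = 0.0535, limma). The remaining genes did not pass the test: Eif1b, a paralogue of Eif1, had a log2 difference of 0.25 (95% interval -0.01 to 0.51) and Eif5, the GTPase activator of eIF2, one of -0.10 (95% interval -0.31 to 0.10). Eif1b passed with centred arrays (adjusted p = 0.0443, limma), without the narrow arrays (adjusted p = 0.0445) and without p53-246 lymphoma 6 alone (adjusted p = 0.0139).

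The genes grouped here under the cap complex held both directions: 5 of 8 rose, 1 fell and 2 did not pass the test. Of all genes, 20.4% rose and 17.8% fell. Eif4e, the cap-binding protein, was at 7.41 and 7.72 in p53-null and at 8.08 and 8.15 in p53-246 normal cells. In p53-null lymphomas it ran from 9.21 over a median of 9.87 to 10.08 and in p53-246 lymphomas from 8.75 over 9.76 to 9.86. All lymphomas were above all normal samples, and the lowest of them was narrow array 6 of the p53-246 lymphomas. Eif4e rose 3.56-fold (log2 difference 1.83, SE 0.18, adjusted p = 3.41e-07, limma). Eif4h, which aids the eIF4A helicase, was at 7.29 and 7.68 in p53-null and at 7.28 and 7.44 in p53-246 normal cells. Its lymphomas ran from 8.79 over a median of 9.0 to 9.44 in p53-null and from 8.47 over 8.82 to 9.07 in p53-246. Both lymphoma groups were clear of the normal samples, and the rise was 2.83-fold (log2 difference 1.50, SE 0.13, adjusted p = 3.75e-08, limma).

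Among the paralogues of the cap-binding protein the directions differed. Eif4e2, which binds the cap without eIF4G and is known for repressing chosen mRNAs, rose by 0.75 (SE 0.13, adjusted p = 0.000171, limma). Eif4e3, an atypical cap binder, was the 1 factor that fell, and its array values are given because it was singled out after they were seen. It was at 6.33 and 6.77 in p53-null and at 6.73 and 6.42 in p53-246 normal cells. In p53-null lymphomas it ran from 5.14 over a median of 5.38 to 6.33 and in p53-246 lymphomas from 5.29 over 5.40 to 6.78. The groups overlapped: p53-246 lymphoma 2 and p53-null lymphoma 6 reached the normal values, and the other lymphomas lay below them. Eif4e3 fell 1.92-fold (log2 difference -0.94, SE 0.25, adjusted p = 0.00604, limma).

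Among the other genes grouped here under the cap complex, Eif4a3, a helicase of the exon junction complex rather than of the cap complex proper, rose by 0.95 (SE 0.16). Eif4g2, a scaffold that lacks the eIF4E binding region, rose by 0.44 (SE 0.08) and had the smallest spread of the set among lymphomas, with a pooled SD of 0.09. Eif4g3, a full-length relative of the scaffold eIF4G1, had a log2 difference of 0.17 (95% interval -0.06 to 0.39), and without p53-null normal sample 2 it was 0.28 (adjusted p = 0.0488, limma). Eif4b had one of -0.13 (95% interval -0.34 to 0.08), between values that were all below the cutoff.

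Both genes of the set with the role of restraining eIF4E rose as well, beside 20.4% of all genes, while Eif4ebp1 was not analysed. Eif4ebp2, a 4E-binding protein released by mTORC1 signalling, was at 6.87 and 7.67 in p53-null and at 7.22 and 6.80 in p53-246 normal cells. It ran from 7.57 over a median of 8.05 to 8.35 in p53-null lymphomas and from 7.74 over 7.86 to 8.43 in p53-246 lymphomas. The groups touched only through p53-null normal sample 2, and the rise was 1.80-fold (log2 difference 0.85, SE 0.17, adjusted p = 0.000468, limma). Eif4enif1, which takes eIF4E into the nucleus and into processing bodies, was at 8.38 and 8.65 in p53-null and at 8.64 and 8.55 in p53-246 normal cells. Lymphomas of p53-null ran from 9.02 over a median of 9.36 to 9.58 and those of p53-246 from 8.53 over 9.35 to 9.49. Of the 12 lymphomas only narrow array 6 of p53-246 lay within the normal range, and the rise was 1.66-fold (log2 difference 0.73, SE 0.15, adjusted p = 0.000657, limma).

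Eif5a2, a paralogue of the hypusine-bearing factor eIF5A that helps ribosomes through difficult stretches, was nearly constant in normal cells. The p53-null normal samples had 5.19 and 5.17 and the p53-246 normal samples 5.16 and 5.14. It ran from 5.69 over a median of 6.02 to 6.84 in p53-null lymphomas and from 5.23 over 5.56 to 6.09 in p53-246 lymphomas. Every lymphoma was above every normal sample, p53-null lymphomas 1 and 4 were highest, and the spread among lymphomas was wide (pooled SD 0.41, against a median of 0.25 over the factors and 0.23 over all genes). Eif5a2 rose 1.65-fold (log2 difference 0.72, SE 0.20, adjusted p = 0.00695, limma). With the replicate number as a block in the model it lost the call (adjusted p = 0.069, limma).

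**Figure D2:**
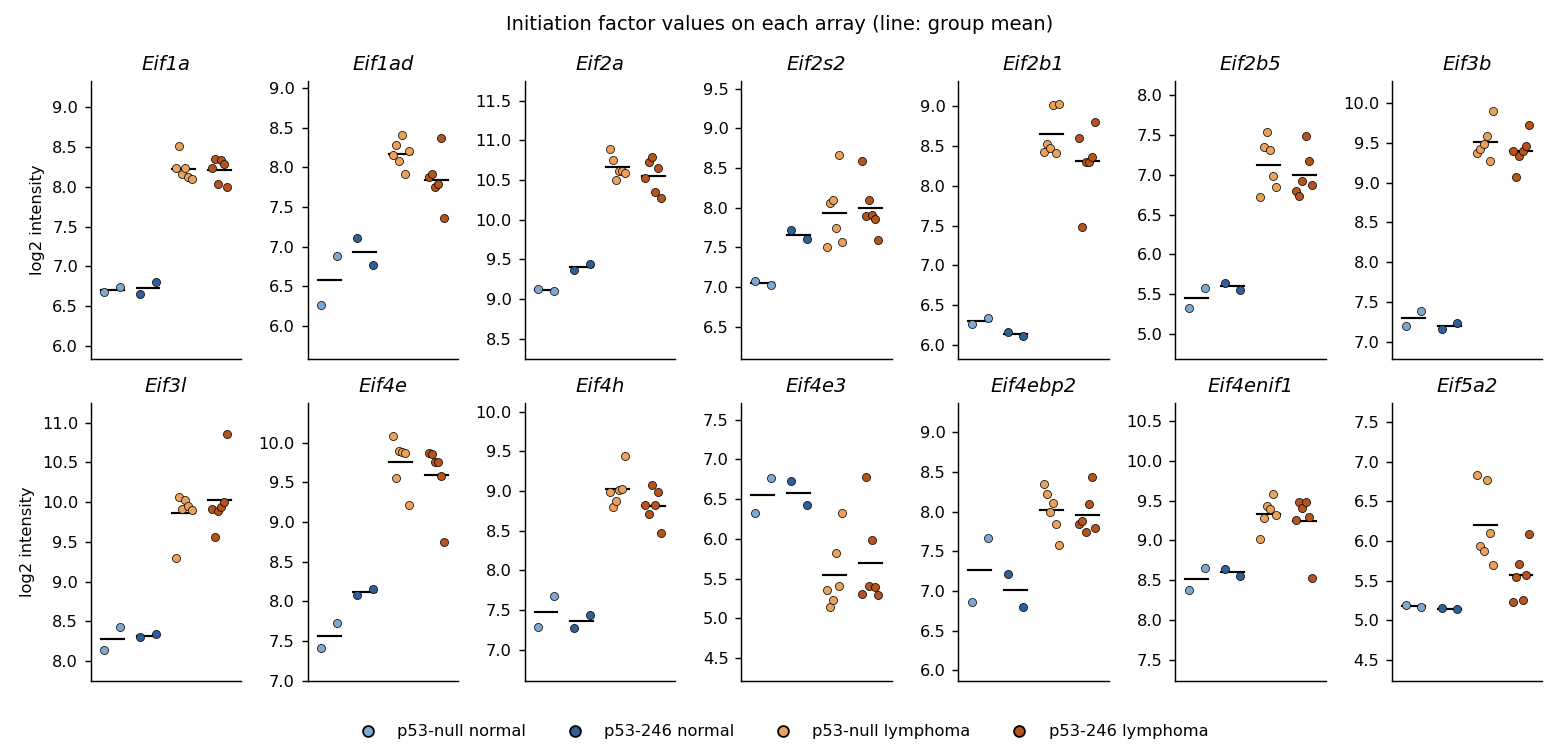
Log2 intensity on each array for 14 initiation factors, by group (2, 2, 6 and 6 arrays); each point is 1 array, the line is the group mean and every panel spans the same number of log2 units. The lymphoma means lie above the normal means in every panel except Eif4e3, and single arrays overlap in Eif4e3, Eif2s2, Eif4ebp2 and Eif4enif1.

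The median log2 difference was 0.72 over the 7 factors with an E-box in a promoter window and 0.80 over the 20 whose windows lack it. Eif2b1 and Eif3b, with the largest rises, have no CACGTG in the windows printed above, and Eif1b has one and did not pass the test. Eif4e and Eif4h have the motif and rose by 1.83 and 1.50. Whether the motif has a part in the rises was not tested.

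Most of the rises were seen within each genotype. In p53-null mice 24 of 33 factors rose and 1 fell (17.5% and 14.4% of all genes), and in p53-246 mice 22 rose and 0 fell (14.5% and 10.6% of all genes). At an unadjusted p under 0.05, 24 of the 33 passed in p53-246 (32.7% of all genes), Eif4e3 among them (log2 difference -0.88, SE 0.35, adjusted p = 0.0848, limma). The differences come from separate arrays, while their tests share the spread estimated over all 16. The median log2 difference was 0.82 in p53-null and 0.83 in p53-246. The sign was the same in both for 97.0% of the factors and for 79.1% of all genes. Within both genotypes 20 factors rose (13.5% of all genes) and 0 fell (8.42% of all genes). Another 5 passed within p53-null only: Eif2s2, Eif3a, Eif5a2 and Eif5b as rises and Eif4e3 as a fall. Within p53-246 only, 2 rose, Eif2b4 and Eif3f. The other 6 passed in neither genotype, Eif3e among them. The shares of all genes that passed in 1 genotype only or in neither were not counted. Lymphomas lay wholly above normal samples for 26 factors in p53-null (19.9% of all genes) and for 21 in p53-246 (17.7% of all genes). The rises were close in the genotypes for Eif3b, at 2.22 (SE 0.17) in p53-null and 2.20 (SE 0.17) in p53-246, and for Eif1a, at 1.52 (SE 0.14) and 1.48 (SE 0.14). They were farther apart for Eif4e, at 2.18 (SE 0.26) and 1.48 (SE 0.26), and for Eif1ad, at 1.60 (SE 0.22) and 0.91 (SE 0.22).

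Each normal group holds 2 samples, and the counts lean on them. Without p53-null normal sample 1, a narrow array, 17 factors were called in p53-null, and without p53-246 normal sample 1 or sample 2, 16 were called in p53-246. With both genotypes averaged, 28 rose and 1 fell without the narrow arrays, and 24 rose and 1 fell without the arrays of high T cell markers.

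**Figure D3:**
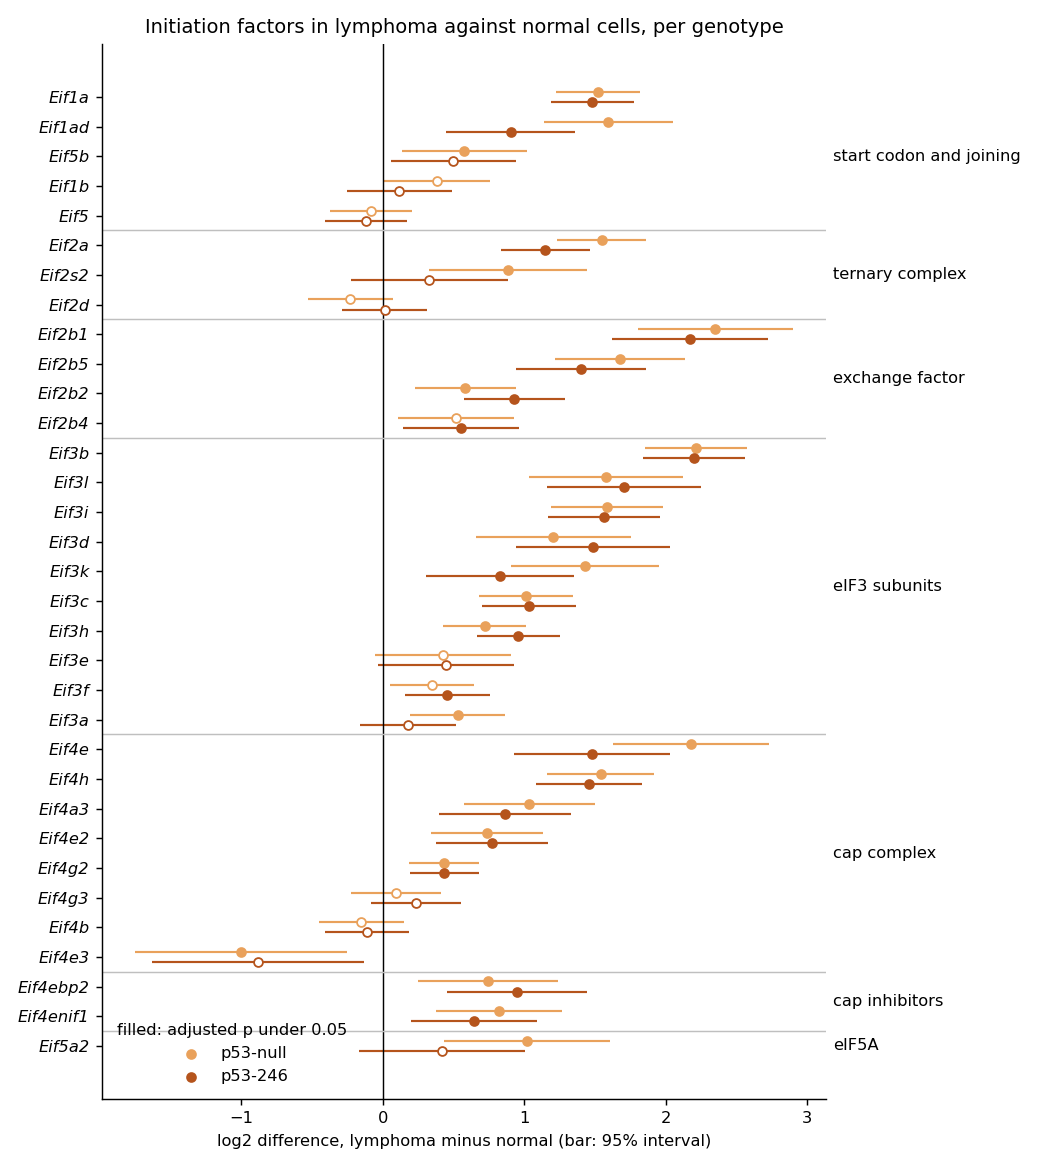
Log2 difference of lymphoma minus normal cells for the 33 factors, by role, within p53-null and within p53-246; bars are 95% intervals and filled points have an adjusted p under 0.05. In p53-null 24 factors rose and 1 fell, and in p53-246 22 rose and 0 fell.

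Whether these rises depend on the p53 genotype is asked by the interaction of genotype and cell type, and 0 of the 33 factors passed (0 of 14860 genes, 0%, limma). At an unadjusted p under 0.05, 1 factor passed, against 3.63% of all genes, and 0 factors passed in a linear model without moderated variances. Eif1ad had the lowest p, with a difference of differences, p53-246 minus p53-null, of -0.69 (SE 0.30, unadjusted p = 0.0369, adjusted p = 0.997, limma). Eif4e came next, at -0.70 (SE 0.37, unadjusted p = 0.0737, limma), and its 95% interval ran from -1.48 to 0.08. The median unadjusted 95% interval of the factors reached a factor of 1.47 to either side.

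Between the lymphoma genotypes, again 0 of 33 factors and 0 of all genes (0%) passed. At an unadjusted p under 0.05, 2 of the 33 passed in limma and 2 in the linear model without moderated variances, against 2.99% of all genes. Eif5a2 had the lowest p. Its difference, p53-246 minus p53-null, was -0.63 on the log2 scale (SE 0.20, 95% interval -1.05 to -0.22, unadjusted p = 0.00498, adjusted p = 0.994, limma), and the ranges 5.23 to 6.09 and 5.69 to 6.84 overlapped. Eif1ad had a difference of -0.33 (SE 0.15, unadjusted p = 0.0456, adjusted p = 0.994, limma). The median difference of p53-246 minus p53-null was -0.08 over the factors, with 22 of 33 below 0. Over all genes it was 0.03, with 6213 of 14860 below 0. For 32 of the 33 factors the difference was at most 0.35 in size, which was not counted over all genes. The median interval of the factors reached a factor of 1.21 to either side. Array 6 of the p53-246 lymphomas, a narrow array, was the lowest of the 12 lymphomas for 14 of the 33 factors. How often it was lowest over all genes was not counted. For Eif5a2 this array was instead the highest of the p53-246 lymphomas, at 6.09, and without it the difference of Eif5a2 was -0.74.

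**Figure D4:**
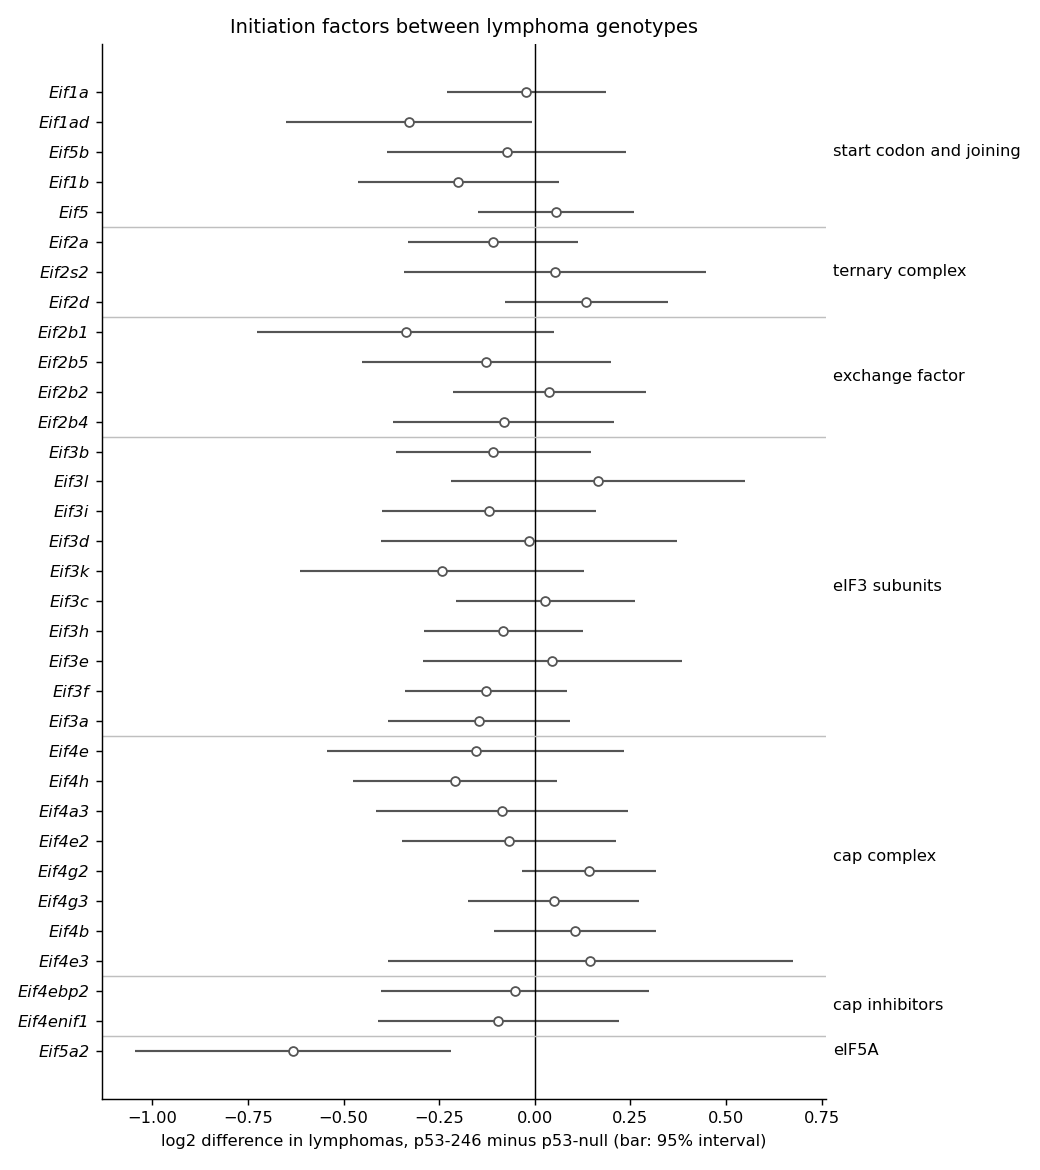
Log2 difference of p53-246 minus p53-null lymphomas (6 against 6 arrays) for the 33 factors; bars are unadjusted 95% intervals, and open points mark that no factor passed after adjustment. Eif5a2, at -0.63, lies farthest from 0.

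In normal cells, with 2 samples against 2, 0 of 33 factors and 0 of all genes (0%) passed between the genotypes. At an unadjusted p under 0.05, 0 factors passed in limma and 1 in the linear model without moderated variances, against 3.40% of all genes in limma. The lowest p values were those of Eif2s2, at 0.61 higher in p53-246 (SE 0.32, unadjusted p = 0.0764, limma), and Eif3h, at -0.32 (SE 0.17, unadjusted p = 0.0771, limma), each with an adjusted p of 0.999. The median interval reached a factor of 1.40 to either side.

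The genes that work beside the initiation factors were read from lists chosen by function. Their counts are with genotypes averaged, unless a genotype is named. They stand beside 20.4% of all genes that rose, 17.8% that fell and a median of -0.09. Of the elongation and termination factors, 10 of 14 measured rose and 0 fell, with a median log2 difference of 0.53. Eef1e1, a scaffold of the aminoacyl-tRNA synthetase complex, rose by 2.12 (SE 0.14), from a range of 7.68 to 8.47 in normal cells to 9.89 to 10.42 in lymphomas. Etf1, the release factor that reads stop codons, rose by 1.96 (SE 0.11), from 7.96 to 8.47 in normal cells to 9.78 to 10.45 in lymphomas. Of the other factors of start site choice, 7 of 10 rose and 0 fell (median 0.61). Within p53-null 6 of 10 rose (17.5% of all genes) and within p53-246 3 of 10 (14.5% of all genes). Bzw2, a protein that mimics eIF5, rose by 2.56 (SE 0.17), and Ddx1, an RNA helicase, by 1.72 (SE 0.14).

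Of the genes of poly(A) and cap binding, 4 of 9 rose and 1 fell (median 0.28), beside 20.4% and 17.8% of all genes. Ncbp2, the small subunit of the nuclear cap-binding complex, rose by 3.09 (SE 0.21), from 5.57 to 6.78 in normal cells to 7.80 to 9.76 in lymphomas. Larp1, which binds mRNAs of the translation machinery under mTORC1 control, rose by 1.74 (SE 0.12). Pdcd4, an inhibitor of eIF4A named after its values were seen, fell by 1.39 on the log2 scale (SE 0.25, adjusted p = 0.000179, limma), and its normal range of 10.01 to 10.71 lay above the lymphoma range of 7.59 to 9.58.

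In mTORC1 and MNK signalling 7 of 15 genes rose and 1 fell (median 0.25), beside 20.4% and 17.8% of all genes. Within p53-null 6 of the 15 rose and 0 fell (17.5% and 14.4% of all genes). Within p53-246 only 2 rose and 1 fell (14.5% and 10.6% of all genes). Rragd, a GTPase that brings mTORC1 to the lysosome, rose by 1.15 (SE 0.38), with all normal values, 3.86 to 4.13, below the low value cutoff. Rheb, the GTPase that activates mTORC1, rose by 1.05 (SE 0.12), and Mtor itself rose by 0.63 (SE 0.15). Of the kinases of eIF2 and the stress response, 3 of 10 rose and 3 fell (median -0.12), beside 20.4% and 17.8% of all genes. The difference from those shares was not tested. Log2 differences in this list ran from -1.23 to 0.83, and the genes that rose are not named here. Ppp1r15a, the stress-induced subunit that directs a phosphatase to eIF2, fell by 1.23 on the log2 scale (SE 0.14). Eif2ak3, the eIF2 kinase of the endoplasmic reticulum, fell by 1.11 (SE 0.20), from 7.59 to 7.84 in normal cells to 5.89 to 7.28 in lymphomas. Eif2ak4, the kinase that senses uncharged tRNA, had a log2 difference of -0.18 (SE 0.16, adjusted p = 0.412, limma). Between the lymphoma genotypes, 0 genes of these lists passed, as was so for all genes.

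**Figure D5:**
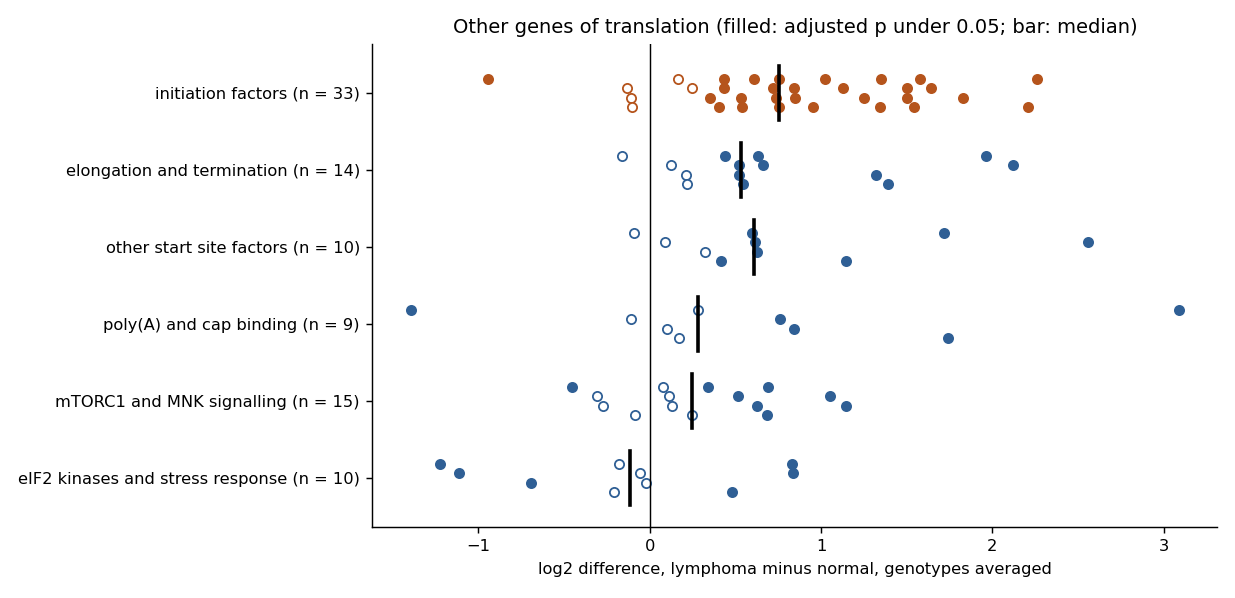
Log2 difference of lymphoma minus normal cells, genotypes averaged, for each measured gene of 6 groups of translation genes; filled points have an adjusted p under 0.05 and the bar is the median of the group. The medians run from 0.76 for the initiation factors to -0.12 for the eIF2 kinases and stress response.

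Markers of other cells moved between the groups as well. Their counts are with genotypes averaged, where 20.4% of all genes rose and 17.8% fell. Of 7 neutrophil markers 4 rose, and their mean was 4.59 to 5.70 on the normal arrays and 6.09 to 6.97 on the lymphoma arrays; Elane and Mpo, the defining enzymes of early granulocytes, did not pass the test. Macrophage and monocyte markers fell in 4 of 5 measured cases, from a mean of 6.37 to 7.02 to one of 4.59 to 5.74. Natural killer cell markers fell in 4 of 4 cases (means 6.02 to 6.75 and 4.76 to 5.53) and platelet markers in 4 of 4 (means 5.99 to 7.29 and 4.24 to 5.07). Within p53-null 1 of 4 platelet markers fell (14.4% of all genes) and within p53-246 3 of 4 (10.6% of all genes). Of 7 T cell markers 0 passed in limma, and 1 did at an unadjusted p under 0.05. The part of these cells in the differences of the initiation factors was not tested.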

How the data were processed

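The authors' deposited value table holds log2 intensities of 23332 transcript clusters on 16 arrays. The log base, summary and normalization are not given in the sources used here: base 2 was inferred, because the highest value read as a natural logarithm would be an intensity of 726214. Per the submitters' processing notes, the software was Partek 6.5 and the build mm8; the notes do not say at which step. Of the transcript clusters, 14996 carry 1 symbol, and the brightest of each gene was tested, 14860 genes in all. The identifiers of all 33 factors matched the reference table.

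A mean per group was fitted to all 16 arrays in R 4.3.3 with limma 3.58.1, two-sided, with Benjamini-Hochberg adjustment over 14860 genes and a threshold of 0.05. SE is the moderated standard error. The fit was run on simulated data with independent normal noise, a uniform shift in some genes and no shared array effects. It thus does not test how deviations of whole arrays affect the calls. Array values are given for, in each role, the 2 called genes with the largest difference, and, after its values were seen, for Eif4e3. Of other lists, the 2 called genes with the largest difference are named, with Mtor, Eif2ak4 and, after its values were seen, Pdcd4. For each genotype contrast the 2 lowest p values are named.

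The factors, lists and tests were chosen with earlier results of these data known. Alternatives were centred arrays, quantile normalization, array weights, the low value cutoff, mean transcript clusters, no moderation, the contrast's groups only, a replicate block and leaving out narrow arrays or single arrays. Leaving out the arrays of high T cell markers was chosen after seeing the data.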

Additional observations from a re-analysis of the deposited data

Results flagged for a closer look

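In each lymphoma group, every factor was examined for an array far from the other 5, by the gap to its nearest neighbour relative to the range. Of 66 sets of 6 arrays 9 had one. The limit would flag about 1 in 20 of independent, normally distributed sets, but these sets share their arrays. The share flagged over all genes was not counted. On p53-246 lymphoma 6, a narrow array, Eif3e was at 9.86 (others 10.68 to 10.91), Eif4e at 8.75 (others 9.57 to 9.86), Eif4enif1 at 8.53 (others 9.25 to 9.49), Eif5 at 10.28 (others 10.61 to 10.79) and Eif3l at 10.86 (others 9.56 to 10.00). On p53-246 lymphoma 5 Eif3h was at 11.52 (others 11.30 to 11.35). Among p53-null lymphomas, Eif1a was at 8.52 on array 2 (others 8.10 to 8.24), Eif3l at 9.29 on array 1 (others 9.90 to 10.07) and Eif4h at 9.44 on array 6 (others 8.79 to 9.03).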

How the results depend on the processing

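Under the alternatives run, 25 to 29 factors were called with genotypes averaged (28 as reported) and, leaving out single arrays, 17 to 28 in p53-null (25 as reported) and 16 to 23 in p53-246 (22 as reported). The other settings gave 18 to 27 in p53-null and 17 to 25 in p53-246. Both genotype contrasts and the interaction gave 0 factors in every setting run, and no called factor changed its sign. Of the 28 called with genotypes averaged, 23 kept the call in all 25 settings; Eif2s2, Eif3a, Eif3e, Eif5a2 and Eif5b lost it in at least 1. With the replicate block 26, 21 and 17 factors were called, and Eif5a2 (adjusted p = 0.069, limma) and Eif5b (0.0535) lost the call. Same-numbered lymphomas correlated at -0.31 to 0.33 in their deviations, with 2 of 6 pairs over 0.1. These few values do not settle whether the numbers pair the samples. Over all genes, calls in p53-null went from 4737 to 2856 without p53-null normal sample 1, and in p53-246 from 3738 to 6180 with array weights and to 2418 or 2407 without normal sample 1 or 2. Between normal genotypes 0 genes became 532 without p53-null normal sample 2, 479 without the arrays of high T cell markers and 4 without p53-246 normal sample 1; in the interaction 0 became 473, 402 and 2. The share of rises among called genes went with centred arrays from 54.9% to 69.8% in p53-null. The causes were not tested. Signal near the low value cutoff limits Eif4b, and 2 normal arrays per genotype limit all contrasts that use them.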
